A study of Mus musculus with 12 samples.

Results

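Regulatory T cells (Treg cells), the Foxp3-expressing CD4 T cells that restrain immune responses, were compared for how their RNA changed on activation in the presence or absence of Batf. The comparison is the genotype by stimulation interaction: the response of Batf-deficient cells (stimulated minus unstimulated) minus the response of wild-type cells. It was measured on log2(RPKM + 1), where RPKM is reads per kilobase of exon, scaled to the reads assigned in the library, and it used all 12 libraries of the series. Of 24394 named genes in the table, the 10406 with an RPKM of at least 1 in 3 or more libraries were tested. A positive interaction means that the response was more positive in the deficient cells (a larger rise or a smaller fall), and a negative one that it was more negative.

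The wild-type mice (WT) and the deficient mice (KO, genotype Foxp3CreBatffl/fl) were C57BL/6 animals of 7 weeks. In the KO, a Cre recombinase under the control of Foxp3 removes a floxed part of Batf, so that the loss is confined to cells that have switched on Foxp3. No source used here says whether the WT mice carried the Cre. Sorted Treg cells were sequenced unstimulated or once they had spent 48 h in wells coated with activating antibodies (5 µg/ml, against CD3 and CD28) and in medium with 200 U/ml of IL-2. Each of the 4 groups held 3 libraries. Separate animals are not stated for the libraries of a group, so a p-value here weighs only the spread from library to library. In KO, and between WT libraries 1 and 2, this spread may be technical. Between these 2 and WT library 3 it is not technical alone, as it includes a difference in sex. The Y-linked gene Eif2s3y read 50.3, 57.7 and 0.072 RPKM in unstimulated and 38.6, 38.9 and 0.04 RPKM in stimulated WT libraries. The response holds everything that differed between the states, the culture and the IL-2 included.

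BATF is a basic leucine zipper protein of the AP-1 family. It has no transactivation domain of its own, pairs with JUN proteins, and binds DNA together with IRF4 or IRF8 at composite elements in activated lymphocytes. In T cells it is known for the Th17 programme, for follicular helper cells, and for the effector and tissue-resident forms of Treg cells. Antibodies to CD3 and CD28 stand in for antigen and costimulation, and IL-2 is the growth factor of Treg cells; together they induce both Batf and Irf4 in T cells.

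The AP-1 site is the sequence element that BATF and its partners read, and the promoters of the genes with the largest interactions were searched for it. The windows were the RefSeq promoters of GRCm38.p6, from 250 bases before to 50 bases after the annotated start. The motif was TGANTCA, which reads the same on both strands. A match lay in 3 of the 11 windows found for the 12 largest negative interactions (Il17a, Emp1, Procr) and in 2 of the 12 windows for the largest positive ones (Ccr4, Cxcl10), against 7.81% of all 32851 windows in the table and 8.97% of 27025 genes. An element of interferon-stimulated genes (GAAA, 2 bases of any kind, GAAA, on either strand) lay in 1 window of a largest positive interaction (Cxcl10) and in 0 of the largest negative ones, against 3.44% of all windows. The matches are shown with the bases around them, 5′ to 3′ on the strand of the gene, with the motif in capitals. They lie at chr1:20730655-20730707 on the plus strand (Il17a), chr6:135362746-135362832 and chr6:135362866-135362930 on the plus strand (Emp1, which has a pair of matches), chr2:155751023-155751109 on the plus strand (Procr), chr9:114496641-114496727 on the minus strand (Ccr4), and chr5:92348917-92349003 and chr5:92349053-92349139 on the minus strand (Cxcl10). A match says only that these letters are there.
Il17a, AP-1: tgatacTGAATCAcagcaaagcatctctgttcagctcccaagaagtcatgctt
Emp1, AP-1, distal: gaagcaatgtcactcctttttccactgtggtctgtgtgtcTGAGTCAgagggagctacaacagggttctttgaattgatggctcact
Emp1, AP-1, proximal: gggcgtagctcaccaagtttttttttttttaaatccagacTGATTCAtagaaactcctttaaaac
Procr, AP-1: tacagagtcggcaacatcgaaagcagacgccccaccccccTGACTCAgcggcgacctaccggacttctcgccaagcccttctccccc
Ccr4, AP-1: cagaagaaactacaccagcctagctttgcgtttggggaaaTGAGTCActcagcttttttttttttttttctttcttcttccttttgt
Cxcl10, AP-1: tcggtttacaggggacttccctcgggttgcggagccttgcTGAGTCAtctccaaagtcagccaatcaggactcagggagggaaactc
Cxcl10, interferon-stimulated element: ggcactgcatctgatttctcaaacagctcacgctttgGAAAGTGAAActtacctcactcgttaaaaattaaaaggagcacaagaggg

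Assigned reads ran from 22731823 to 32055383 per library. On the first principal component (86.5% of the variance) the states separated, and the second carried 5.75%. The Treg markers Foxp3 (26.4 to 74.8 RPKM), Il2ra (131 to 362 RPKM), Ctla4, Ikzf2, Cd4 and Cd3e were present in every library. The Y-linked genes Ddx3y, Kdm5d, Uty and Eif2s3y read 3.28 to 57.7 RPKM in WT libraries 1 and 2 of both states, at most 0.072 RPKM in WT library 3, and were listed at 0 in the KO libraries, so sex and genotype were partly confounded. The interaction was therefore also fitted without those 4 libraries, and with these transcripts as a covariate. In bulk RNA, fewer cells of a kind and less RNA per cell cannot be told apart.

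Most of the activation response had the same direction in both genotypes. In WT, 44.5% of genes rose and 35.4% fell (79.9% in all, limma adjusted p under 0.05). In KO, 44.3% rose and 34.6% fell (78.8%). The responses share no library, and across the 10406 genes, which are not independent, they had a Pearson r of 0.957 and a Spearman rho of 0.955. Genes that passed in both genotypes in 1 direction made up 89.7% of those called in WT and 90.9% of those called in KO. Among 3278 genes whose WT response was at least 1 log2 unit in size, the median ratio of the KO response to the WT response was 0.921.

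The interaction passed for 481 genes, or 4.62% of those tested. It was positive for 247 (2.37%) and negative for 234 (2.25%), and 59 and 57 of these were at least 1 log2 unit in size. Without an adjustment, 2029 genes had a p under 0.05. The median interaction over all genes was 0.0153 and the median of its size was 0.158, next to a median SE of 0.145. Without WT libraries 1 and 2, which leaves 1 WT library in each state, 9 positive and 15 negative genes passed, and all 481 genes kept their direction. The libraries left had also served to choose these genes, so the kept direction is not an independent check. With Y-linked transcripts as a covariate 205 positive and 192 negative genes passed. Leaving out 1 library moved both counts past 1.5 times for unstimulated WT 1 (151 and 135), 2 (152 and 143) and 3 (120 and 110). It also did so for stimulated WT 2 (123 and 123) and stimulated KO 2 (150 and 120) and 3 (107 and 99). Without stimulated WT 3 (179 and 155) only the negative count moved that far. In all 12 such fits 175 of the 481 calls held.

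**Figure D1:**
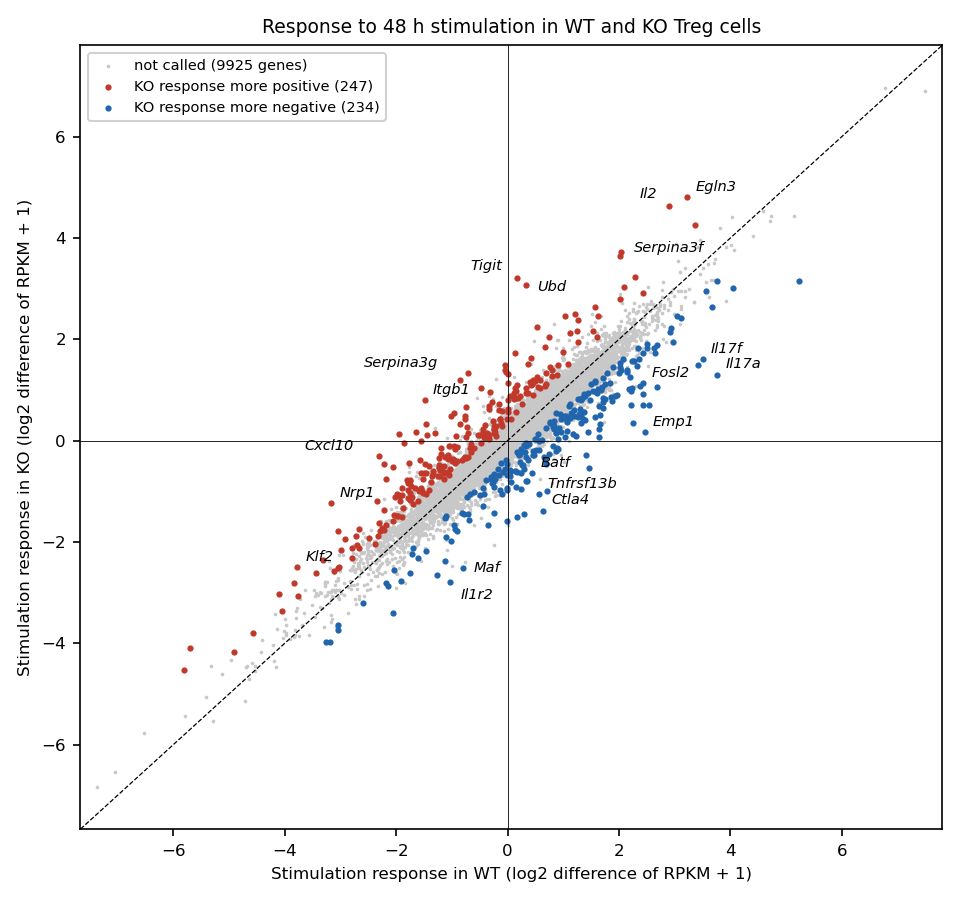
Response to 48 h of stimulation in WT (x axis) and in KO (y axis) for 10406 genes, each a difference of log2(RPKM + 1) between group means of 3 libraries. Points lie along the dashed line of equal responses (r = 0.957), and 247 red and 234 blue genes passed the interaction test on either side of it.

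Among called genes, a weaker response of the same sign in KO was about as frequent as over all genes tested. A stronger one was less frequent, and differing signs were more frequent. Genes with a negative interaction had a median response of 0.85 in WT and 0.11 in KO, and those with a positive interaction -0.91 and -0.04. The fitted responses were both positive and smaller in KO for 124 of the 481 genes (25.8%, against 26.7% of all genes tested), and both negative and smaller in KO for 126 (26.2% against 24.5%). They were both positive and larger in KO for 68 (14.1% against 24.1%), and both negative and larger in KO for 61 (12.7% against 16.6%). The signs differed between the genotypes for the remaining genes, 49 positive in WT only and 53 positive in KO only, which is 10.2% and 11% of the called genes against 3.58% and 4.54% of all genes tested. For 20 genes both responses passed, up in WT and down in KO, Ctla4, Tnfrsf13b, Stat3, Sgk1, Tec and Batf (the gene targeted in the KO) among them. For 16 genes both passed in the reverse sense, among them Itgb1, Serpina3g, Gbp5, Cd5, Il18rap and Tnfrsf1b. These sorts use the values of the interaction itself and are a description.

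Among transcription factors, Batf is the gene targeted in the KO, so its own interaction is no test of a response that depends on Batf. Batf (chromosome 12, 85686720 to 85709087, plus strand, mm10) read 103, 93.3 and 90.0 RPKM in unstimulated and 134, 125 and 128 RPKM in stimulated WT libraries. The KO libraries held 46.9, 33 and 25.9 RPKM in unstimulated and 26.5, 21.2 and 18 RPKM in stimulated KO libraries. WT rose and KO fell, with every KO value below every WT value (interaction -1.08, SE 0.24, adjusted p = 0.0243). Each value is for the whole gene, so reads from any exons left in place cannot be told apart from those of intact Batf RNA. The source of the KO reads was not tested. The Batf call was lost in 5 of 12 fits that each left out 1 library (adjusted p 0.055 to 0.0673; unstimulated WT 2 or 3, stimulated WT 2 or stimulated KO 2 or 3). Irf4, the factor that binds with BATF, read 19.3, 17.6 and 19.8 RPKM in unstimulated and 128, 118 and 137 RPKM in stimulated WT libraries, and 34.3, 28.4 and 24.3 RPKM in unstimulated and 181, 184 and 181 RPKM in stimulated KO libraries. It rose in both genotypes, with KO above WT in each state, and its interaction did not pass (interaction -0.07, SE 0.14, adjusted p = 0.84, 95% interval -0.38 to 0.24).

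Fosl2, which encodes the AP-1 protein FRA-2, read 0.66, 0.34 and 0.46 RPKM in unstimulated and 6.97, 6.5 and 7.63 RPKM in stimulated WT libraries. In KO it read 0.83, 0.56 and 0.55 RPKM and then 2.81, 2.38 and 2.59 RPKM. The unstimulated groups overlapped and the stimulated ones did not, with a smaller rise in KO (interaction -1.31, SE 0.16, adjusted p = 0.000503). Maf, a basic leucine zipper factor that drives Il10 and other cytokine genes in T cells, read 20.9, 17.6 and 18 RPKM in unstimulated and 11.2, 8.26 and 11.8 RPKM in stimulated WT libraries. It read 14.2, 14.2 and 11 RPKM in unstimulated and 1.5, 1.65 and 1.28 RPKM in stimulated KO libraries. The fall was small in WT and deep in KO (interaction -1.70, SE 0.19, adjusted p = 0.000256), and this call held under every alternative tried. Jun, a member of the JUN family with which BATF pairs, fell from 52.4 to 14.5 RPKM in WT. In KO it fell less, from 46.6 to 20.8 RPKM (interaction 0.66). Of 44 tested genes in the list of AP-1, IRF and lineage transcription factors 7 passed, which is 15.9% against the 4.62% of all genes. The 7 include Batf, the gene targeted in the KO. Jun, Tox2 (1.55) and Irf1 (0.38) were positive, and Batf, Maf, Fosl2 and Runx2 (-1.07) negative, with a list median of 0.01. Tox2 fell from 6.29, 6.83 and 5.59 RPKM to 1.07, 1.18 and 2.25 RPKM in WT. In the KO libraries of both states it read at most 0.274 RPKM. With no room to fall in KO, its interaction is in effect the fall in WT. With any 1 library left out 5 of these 7 calls held, while Batf and Irf1 lost theirs in 5 to 10 of 12 fits (adjusted p up to 0.104). All gene lists were drawn up with earlier results of these data known, so their shares are a description.

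Secreted cytokines held some of the largest differences. Il17a (chromosome 1, 20730905 to 20734496, plus strand), the signature cytokine of Th17 cells, read 0.03, 0.07 and 0.11 RPKM in unstimulated and 10.7, 13.2 and 17.5 RPKM in stimulated WT libraries. It was listed at 0 in all 3 unstimulated KO libraries and at 1.11, 1.41 and 1.94 RPKM in the stimulated ones. Every stimulated WT library was above every stimulated KO library (interaction -2.46, SE 0.22, adjusted p = 7.81e-05). Its neighbour Il17f went from 0.03, 0 and 0.04 to 8.47, 10.1 and 13.8 RPKM in WT and from 0.11, 0.07 and 0 to 1.44, 3.17 and 2.36 RPKM in KO (interaction -1.89, SE 0.26, adjusted p = 0.00126). Because both genes were near 0 without stimulation, their interaction on this scale is in effect the difference between the stimulated groups. On recovered reads with limma-voom, where no pseudocount of 1 RPKM damps the low values, neither passed (interaction -1.01, adjusted p = 0.718 for Il17a; -2.89 and 0.282 for Il17f).

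Il2, the T cell growth factor that Treg cells normally make little of, moved the other way. It read 0.12, 0.05 and 0 RPKM in unstimulated and 7.52, 6.74 and 6.32 RPKM in stimulated WT libraries, and 0.14, 0.14 and 0.16 RPKM in unstimulated and 12.9, 37.7 and 41.8 RPKM in stimulated KO libraries. Each stimulated KO library was above each stimulated WT library, with KO library 1 well under the other two (interaction 1.74, SE 0.42, adjusted p = 0.0364). The Il2 call was lost in 10 of 12 fits that each left out 1 library (adjusted p 0.0516 to 0.0895; unstimulated WT 1, 2 or 3, unstimulated KO 1, 2 or 3, stimulated WT 2 or 3 or stimulated KO 2 or 3) and with limma-voom (0.54, adjusted p = 0.945). Ccl1, the chemokine ligand of CCR8, read 4.87, 8.04 and 5.87 RPKM in unstimulated and 21.2, 25.3 and 40.5 RPKM in stimulated WT libraries, and 6.14, 3.05 and 4.34 RPKM in unstimulated and 84.6, 51.4 and 65 RPKM in stimulated KO libraries. The rise was larger in KO (interaction 1.62, SE 0.36, adjusted p = 0.0249), and the call was lost in 5 of 12 fits that each left out 1 library (adjusted p 0.0545 to 0.0688; unstimulated WT 2 or 3, stimulated WT 2 or stimulated KO 1 or 3). Il10, an inhibitory cytokine of effector Treg cells, read 6.07, 8.66 and 6.29 RPKM in unstimulated and 48.6, 38.6 and 46.6 RPKM in stimulated WT libraries, and 7.06, 4.85 and 5.59 RPKM in unstimulated and 13, 25.3 and 17.3 RPKM in stimulated KO libraries. All 3 stimulated KO libraries were below the stimulated WT ones, but the interaction missed the threshold (interaction -1.04, SE 0.28, adjusted p = 0.0556) and passed only in the fit without library stimulated KO 2 (adjusted p = 0.0146) among the single-library fits.

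Of 22 tested cytokine genes 7 passed (31.8%), and limma-voom called 2. Il2, Lif (0.78) and the lymphotoxin gene Ltb (0.84) were positive, and Il17a, Il17f, Il1a (-1.15) and Tgfb1 (-0.43) negative, with a list median of 0.00. Tgfb1 went from 135 ± 6.17 to 262 ± 21.2 RPKM in WT and from 134 ± 8.62 to 192 ± 3.72 RPKM in KO, and Ltb from 878 ± 15 to 264 ± 37.8 RPKM in WT and from 930.0 ± 178 to 493 ± 42.5 RPKM in KO (SD, n = 3). Il2, Lif, Ltb and Tgfb1 lost the call in 1 to 10 of the 12 fits without 1 library (adjusted p up to 0.0895), and the other calls (3 of 7) held in all. The Th17-type list, which shares Il17a, Il17f, Maf and Batf with other lists, had 4 calls among 14 tested genes (28.6%) and a median of -0.53. Batf, the gene targeted in the KO, is among the 4. All 12 fits without 1 library kept 3 of the 4 calls, and Batf lost its call in 5 of them (adjusted p up to 0.0673).

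**Figure D2:**
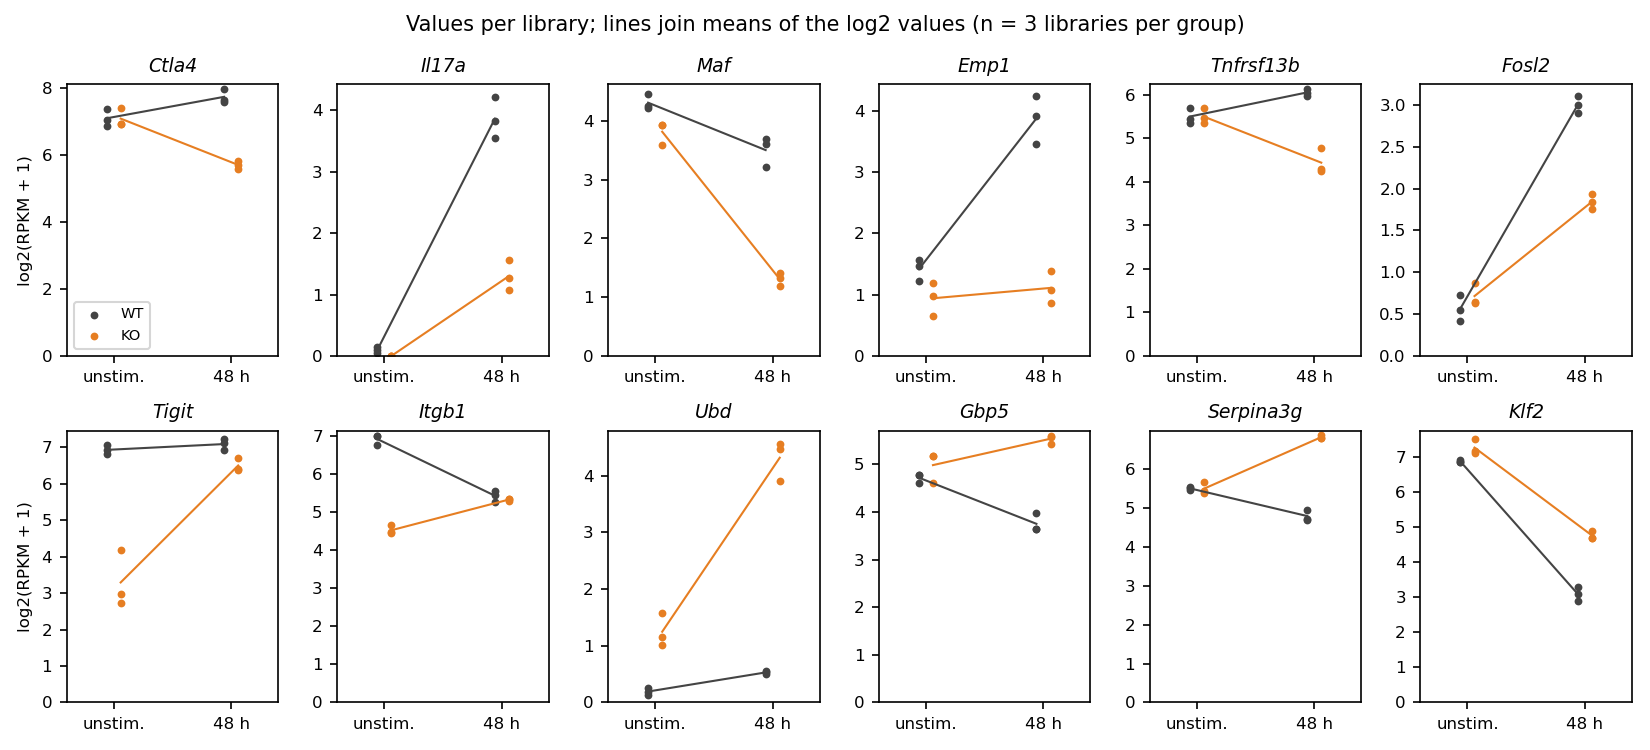
log2(RPKM + 1) of 12 genes in the 12 libraries, without stimulation and at 48 h (WT dark, KO orange; points are libraries and lines join the means of 3). In the upper row the KO line ends below the WT line (Ctla4 interaction -2.02, Il17a -2.46), and in the lower row it climbs more or falls less than the WT line (Tigit 3.05, Ubd 2.73).

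Among cytokine receptors, the chains Ifngr1 and Il10rb went opposite ways. Ifngr1, the ligand-binding chain for interferon gamma, read 79.1, 78.8 and 80.6 RPKM in unstimulated and 39.2, 39.2 and 42.7 RPKM in stimulated WT libraries, and 91.2, 78.6 and 81.8 RPKM in unstimulated and 28, 24.5 and 25 RPKM in stimulated KO libraries. It fell in both genotypes and further in KO, where the stimulated values did not overlap with WT (interaction -0.70, SE 0.10, adjusted p = 0.00186). Il10rb, a chain shared by the receptors of interleukin-10 and interferon lambda, read 57.4, 61.6 and 59.1 RPKM in unstimulated and 16.2, 19.3 and 16.9 RPKM in stimulated WT libraries, and 50.8, 48.5 and 49.2 RPKM in unstimulated and 24.4, 20.5 and 22.4 RPKM in stimulated KO libraries. KO was lower without stimulation and higher with it (interaction 0.60, SE 0.11, adjusted p = 0.00876). Ifngr2, the second chain of the interferon gamma receptor, went from 13.7 to 7.05 RPKM in WT and from 15.9 to 10.3 RPKM in KO, and its interaction did not pass (interaction 0.29, SE 0.20, adjusted p = 0.447).

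Il1r2, the decoy receptor of interleukin-1, read 51.1, 39.9 and 40.0 RPKM in unstimulated and 22.6, 18.4 and 21.4 RPKM in stimulated WT libraries. It read 121, 48.5 and 55.3 RPKM in unstimulated and 11.8, 6.83 and 9.21 RPKM in stimulated KO libraries, with unstimulated KO library 1 far above the other two. The fall was deeper in KO (interaction -1.76, SE 0.38, adjusted p = 0.0208), and the call was lost in 4 of 12 fits that each left out 1 library (adjusted p 0.0534 to 0.0582; unstimulated WT 2 or 3 or stimulated KO 2 or 3). Of 36 tested genes for cytokine receptors and their feedback 8 passed (22.2%, median 0.19). Il18rap (0.97), Tgfbr1 (0.70), Il10rb and Il27ra (0.48) were positive, and Il1r2, the interleukin-7 receptor Il7r (-1.35), Ifngr1 and Stat3 (-0.38) negative. Il7r went from 24.9 to 5.27 RPKM in WT and from 26.1 to 1.64 RPKM in KO. When each library was left out in turn, 2 of the 8 calls held in all 12 fits, and Il18rap, Il1r2, Il27ra, Il7r, Stat3 and Tgfbr1 lost theirs in 1 to 10 (adjusted p up to 0.102).

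Among integrins and chemokine receptors, the integrin chain Itgb1 shared with Serpina3g the smallest adjusted p of all genes tested. Itgb1 (chromosome 8, 128685654 to 128733579, plus strand), the integrin beta 1 chain, read 126, 108 and 127 RPKM in unstimulated and 37.7, 42.8 and 46.4 RPKM in stimulated WT libraries. It read 21.2, 24.3 and 20.7 RPKM in unstimulated and 39.3, 39.9 and 38.5 RPKM in stimulated KO libraries. The unstimulated KO libraries were far below WT, and the stimulated groups overlapped, as WT fell and KO rose to a shared level (interaction 2.30, SE 0.13, adjusted p = 8.97e-07; responses -1.49 in WT and 0.81 in KO). Ccr4, a receptor for homing to skin and other tissues, read 44.4, 39.2 and 52.2 RPKM in unstimulated and 47.9, 42.3 and 60.4 RPKM in stimulated WT libraries, and 10.3, 6.19 and 8.7 RPKM in unstimulated and 33.8, 26.6 and 29.4 RPKM in stimulated KO libraries. KO rose towards WT without reaching it (interaction 1.60, SE 0.24, adjusted p = 0.00209).

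Of 29 tested genes in the list of chemokine receptors, integrins and trafficking 6 passed (20.7%, median 0.23, with list medians of -1.49 for the WT response and -0.99 for the KO response). Itgb1, Ccr4, Cxcr3 (0.84), Cd44 (0.73) and Itgal (0.45) were positive. S1pr1, the receptor that lets lymphocytes leave lymphoid organs, was negative and fell from 176 to 18.6 RPKM in WT and from 175 to 10.3 RPKM in KO. Cxcr3, the receptor of CXCL10, fell from 61.2 to 15.4 RPKM in WT and from 26.1 to 11.6 RPKM in KO. With any 1 library left out 3 of these 6 calls held, while Cd44, Itgal and S1pr1 lost theirs in 1 to 7 of 12 fits (adjusted p up to 0.0849). Ccr8, a receptor of tissue Treg cells, was lower in KO in both states, at 62.9, 66.2 and 53.3 RPKM in unstimulated and 423, 427 and 402 RPKM in stimulated WT libraries and 24.5, 31.7 and 30.2 RPKM in unstimulated and 155, 142 and 139 RPKM in stimulated KO libraries. Its interaction did not pass (interaction -0.46, SE 0.14, adjusted p = 0.0812) except in the fit without library unstimulated KO 1 (adjusted p = 0.0195) among the single-library fits. Itgae, the integrin chain CD103, also did not pass (interaction 0.08, SE 0.70, adjusted p = 0.97, 95% interval -1.43 to 1.59), with 29.8, 4.26 and 5.24 RPKM in the unstimulated KO libraries, a wide spread set by library 1.

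Of the costimulatory and inhibitory receptors, Ctla4 and Tigit moved in opposite ways. Ctla4 (chromosome 1, 60909025 to 60915832, plus strand), which takes CD80 and CD86 from antigen-presenting cells, read 130.1, 164 and 115 RPKM in unstimulated and 189.5, 251 and 198 RPKM in stimulated WT libraries. In KO it read 166, 121 and 121 RPKM and then 47, 55.4 and 50.5 RPKM. The unstimulated groups overlapped, and after stimulation every KO library was far below every WT library (interaction -2.02, SE 0.21, adjusted p = 0.000174). The responses were 0.64 in WT and -1.38 in KO. Tigit (chromosome 16, 43648861 to 43664184, minus strand), an inhibitory receptor for CD155, read 119.7, 133 and 112 RPKM in unstimulated and 138, 121 and 149 RPKM in stimulated WT libraries. It read 17.2, 6.85 and 5.58 RPKM in unstimulated and 104, 84 and 82.9 RPKM in stimulated KO libraries. KO was low without stimulation and rose with it, though every stimulated KO library stayed below every stimulated WT library. The interaction was the largest positive one among the genes named (interaction 3.05, SE 0.38, adjusted p = 0.00062).

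Icos, a costimulatory receptor of effector Treg cells, read 112, 114 and 86.8 RPKM in unstimulated and 65.5, 58.9 and 62.9 RPKM in stimulated WT libraries, and 39.1, 29.6 and 25.6 RPKM in unstimulated and 34.1, 39.1 and 39.2 RPKM in stimulated KO libraries. WT fell, KO stayed lower in both states, and the gap was smaller with stimulation (interaction 0.99, SE 0.19, adjusted p = 0.0129). Of 26 tested genes in the list 6 passed (23.1%, median 0.18). Tigit, Icos, Pdcd1 (0.68) and Cd5 (0.48) were positive, and Ctla4 and Lag3 (-0.80) negative. Pdcd1, which encodes PD-1, went from 48.9 to 69.2 RPKM in WT and from 32.2 to 73.9 RPKM in KO, and Lag3 from 20.2 to 22.9 RPKM in WT and from 25.1 to 15.7 RPKM in KO. Lag3 and Pdcd1 lost the call in 6 to 8 of the 12 fits without 1 library (adjusted p up to 0.104), and the other calls (4 of 6) held in all.

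In the TNF family, Tnfrsf13b, which encodes TACI, a receptor for BAFF and APRIL, read 42.4, 40.0 and 50.5 RPKM in unstimulated and 61.6, 65 and 69.4 RPKM in stimulated WT libraries. It read 50.5, 39.6 and 42.8 RPKM in unstimulated and 26.1, 18.6 and 18.1 RPKM in stimulated KO libraries. The unstimulated groups overlapped, and then WT rose while KO fell (interaction -1.61, SE 0.19, adjusted p = 0.000357). Fas, the death receptor, read 27.5, 25.6 and 23.6 RPKM in unstimulated and 6.54, 6.82 and 6.57 RPKM in stimulated WT libraries, and 33.1, 32.9 and 28.6 RPKM in unstimulated and 17.2, 13.8 and 15.4 RPKM in stimulated KO libraries, a smaller fall in KO (interaction 0.81, SE 0.13, adjusted p = 0.00305). Of 22 tested genes 6 passed (27.3%, median -0.01). Cd70 (1.30), Tnfrsf26 (0.87), Fas, Tnfsf11 (0.72), which encodes RANKL, and Tnfrsf1b (0.49), which encodes TNF receptor 2, were positive, and Tnfrsf13b negative. All 12 fits without 1 library kept 4 of the 6 calls, and Tnfrsf1b and Tnfsf11 lost theirs in 5 to 8 of them (adjusted p up to 0.0935).

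The genes that define Treg identity gave a mixed picture. Foxp3, the lineage factor, read 74.8, 70.8 and 64.9 RPKM in unstimulated and 32.8, 31.9 and 37.1 RPKM in stimulated WT libraries, and 54.2, 66.3 and 54.7 RPKM in unstimulated and 28.9, 27.2 and 26.4 RPKM in stimulated KO libraries. It fell in both genotypes and its interaction did not pass (interaction -0.03, SE 0.13, adjusted p = 0.934, 95% interval -0.30 to 0.24). Il2ra, the high-affinity interleukin-2 receptor chain, read 146, 146 and 144 RPKM in unstimulated and 323, 315 and 362 RPKM in stimulated WT libraries, and 155, 152 and 131 RPKM in unstimulated and 284, 261 and 235 RPKM in stimulated KO libraries. Its interaction missed the threshold (interaction -0.36, SE 0.12, adjusted p = 0.103, 95% interval -0.61 to -0.11) and passed in the fit without library unstimulated KO 3 (adjusted p = 0.0389). Ikzf2, which encodes Helios, read 19.4, 20.3 and 20.6 RPKM in unstimulated and 19, 19.5 and 21.5 RPKM in stimulated WT libraries, and 14.9, 12.9 and 10.5 RPKM in unstimulated and 10.9, 8.76 and 8.06 RPKM in stimulated KO libraries. Helios RNA was lower in KO in both states and its interaction did not pass (interaction -0.42, SE 0.17, adjusted p = 0.194).

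Nrp1, a co-receptor of thymus-derived Treg cells, read 53, 48.6 and 52.6 RPKM in unstimulated and 4.75, 4.36 and 5.44 RPKM in stimulated WT libraries. In the deficient cells it read 20.2, 17.2 and 16.4 RPKM, then 8.37, 6.24 and 6.71 RPKM. KO started below WT, fell less, and ended slightly above it (interaction 1.94, SE 0.15, adjusted p = 3.7e-05). Gata3, a factor of tissue Treg cells, did not pass (interaction -0.53, SE 0.25, adjusted p = 0.27). Klrg1, an inhibitory receptor of late effector cells, fell from a mean of 42.2 to 6.37 RPKM in WT and from 8.55 to 0.183 RPKM in KO. Its interaction did not pass either (interaction -0.27, SE 0.44, adjusted p = 0.792, 95% interval -1.21 to 0.67). The stimulated KO libraries read 0.26, 0.11 and 0.18 RPKM, where the pseudocount of 1 RPKM damps the fall. With limma-voom the Klrg1 interaction was -2.54 and did not pass (adjusted p = 0.19), so a like fall in both genotypes is not shown. The Treg core list had 9 calls among 29 tested genes (31%, median -0.10). Tigit, Nrp1, Gzmb (1.28), Cd83 (1.26) and Icos were positive, and Ctla4, Plagl1 (-1.41), Lag3 and Tgfb1 negative. When each library was left out in turn, 6 of the 9 calls held in all 12 fits, and Gzmb, Lag3 and Tgfb1 lost theirs in 5 to 7 (adjusted p up to 0.0851). The effector and tissue Treg list had 10 calls among 32 (31.2%, median 0.10). Positive were Tigit, Ccr4, S100a4 (1.59), Gzmb, Icos, Cxcr3, Cd44 and Tnfrsf1b, and negative were Maf and Lgals1 (-0.92). Of the positive genes, S100a4 went from 260.2 to 4.11 RPKM in WT and from 58.3 to 2.46 RPKM in KO. With any 1 library left out 6 of these 10 calls held, while Cd44, Gzmb, Lgals1 and Tnfrsf1b lost theirs in 3 to 7 of 12 fits (adjusted p up to 0.0851).

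Interferon response genes were the list with the most calls in 1 direction of the 25 lists of T cell genes. Their median response was -1.80 in WT and -1.52 in KO. Of 48 tested genes 10 passed (20.8%), and the list median was 0.34. The 10 were positive: Ubd, Cxcl10, Gbp5, Gbp4 (0.94), Gbp6 (0.94), Gbp8 (0.82), Cmpk2 (0.63), Isg20 (0.52), Irgm1 (0.43) and Irf1. At an unadjusted p under 0.05 there were 20 positive genes and 1 negative one (43.8% of the list, against 19.5% of all genes tested, of which 1046 were positive and 983 negative). Limma-voom called 6 of the 48. Cmpk2, Gbp4, Gbp8, Irf1, Irgm1 and Isg20 lost the call in 4 to 11 of the 12 fits without 1 library (adjusted p up to 0.122), and the other calls (4 of 10) held in all.

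Ubd (chromosome 17, 37193892 to 37196101, plus strand), which encodes the ubiquitin-like modifier FAT10, read 0.2, 0.14 and 0.09 RPKM in unstimulated and 0.45, 0.47 and 0.41 RPKM in stimulated WT libraries. It read 2, 1.22 and 1.01 RPKM in unstimulated and 21.2, 14.1 and 22.7 RPKM in stimulated KO libraries. KO was above WT in both states and rose while WT stayed under 1 RPKM (interaction 2.73, SE 0.24, adjusted p = 7.81e-05). With limma-voom the interaction was 2.28 and did not pass (adjusted p = 0.189). Gbp5, a guanylate-binding protein of cell-autonomous defence, read 26.4, 26.3 and 23.5 RPKM in unstimulated and 11.4, 11.5 and 14.8 RPKM in stimulated WT libraries. It read 35.3, 35 and 23.2 RPKM in unstimulated and 46.9, 47.6 and 42.1 RPKM in stimulated KO libraries. WT fell and KO rose from overlapping levels (interaction 1.52, SE 0.20, adjusted p = 0.000832). The Gbp genes are paralogs, some of them highly similar, so reads may be split between them in a way that no source used here describes.

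Cxcl10, the interferon-induced ligand of CXCR3, read 6.02, 7.3 and 7.74 RPKM in unstimulated and 0.83, 0.63 and 0.41 RPKM in stimulated WT libraries, and 1.27, 1.6 and 1.62 RPKM in unstimulated and 0.99, 1.33 and 0.74 RPKM in stimulated KO libraries. WT was higher without stimulation and the stimulated groups overlapped (interaction 1.99, SE 0.19, adjusted p = 0.000101). The macrophage complement gene C1qb moved the same way. It averaged 2.37 RPKM in unstimulated WT and 0.736 RPKM in unstimulated KO libraries, and was listed at 0 in all stimulated ones. Of the myeloid and dendritic cell markers 3 were called positive and 1, Xcr1, negative. Without stimulation their sums overlapped between the genotypes (40.1 to 63.1 RPKM in WT, 39.1 to 58.3 RPKM in KO). The part of such cells in the interaction of Cxcl10 was not tested. In the list of MHC class I and immunoproteasome genes, 1 of 21 tested genes passed (4.76%, the background share). It was Tapbp, the tapasin gene of peptide loading, at 159, 173 and 168 RPKM in unstimulated and 55.8, 58.3 and 56.9 RPKM in stimulated WT libraries and 169, 176 and 176 RPKM in unstimulated and 91, 82.6 and 85.3 RPKM in stimulated KO libraries, a smaller fall in KO (interaction 0.53, SE 0.08, adjusted p = 0.00257).

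**Figure D3:**
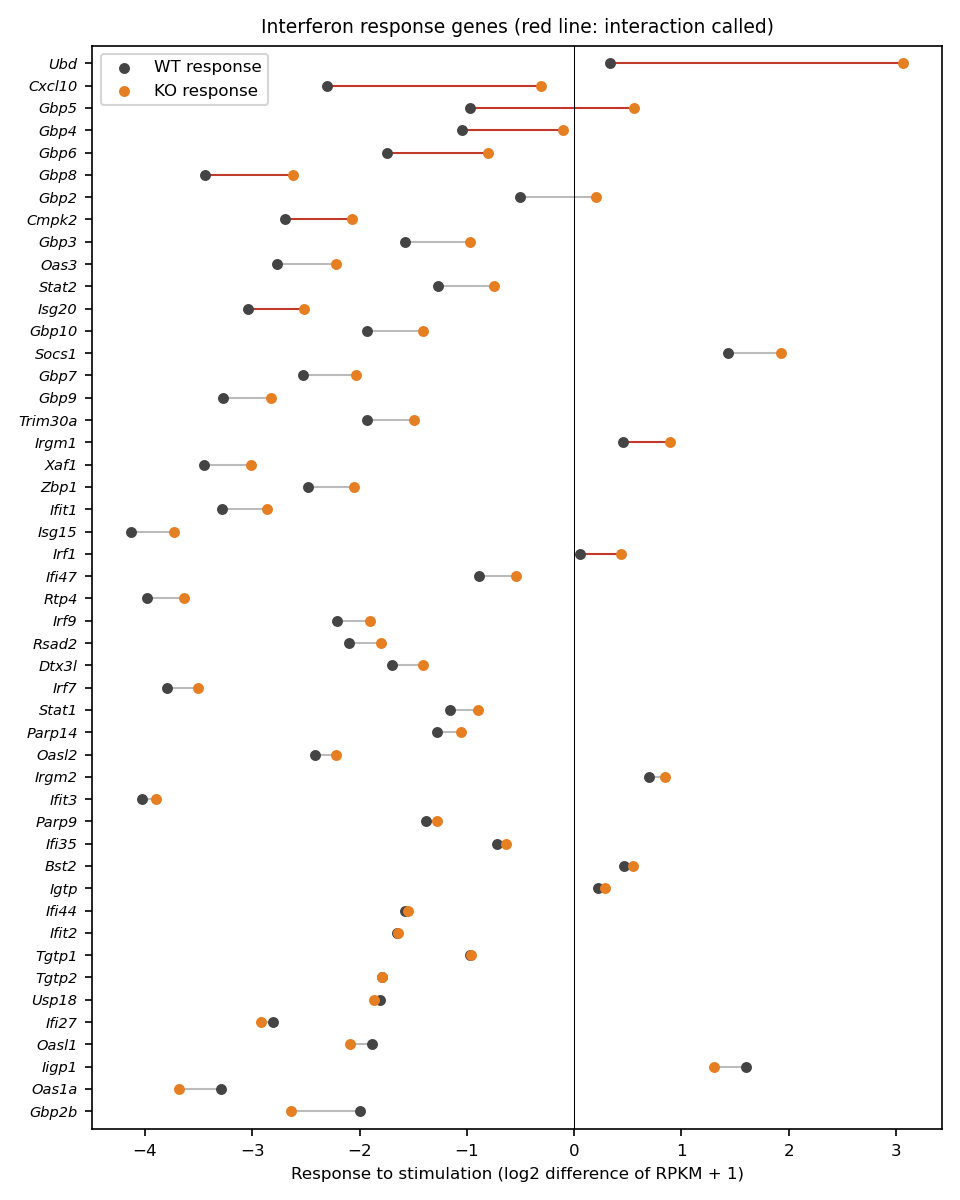
Response to 48 h of stimulation (difference of log2(RPKM + 1)) of the 48 tested interferon response genes in WT (dark) and KO (orange), sorted by the interaction, with red lines for the 10 that passed. Orange points lie to the right of dark ones for most genes, from a list median of -1.80 in WT to -1.52 in KO.

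Serpins and granule genes had 6 calls among 13 tested genes (46.2%, median 0.28). Serpina3g (chromosome 12, 104214544 to 104241934, plus strand), an inhibitor of lysosomal cathepsins, read 43.1, 45.2 and 44.7 RPKM in unstimulated and 29.9, 24.9 and 25.5 RPKM in stimulated WT libraries. It read 49.3, 41 and 41.9 RPKM in unstimulated and 109, 116 and 110.2 RPKM in stimulated KO libraries. The unstimulated groups overlapped, and then WT fell while KO rose in each library (interaction 2.04, SE 0.12, adjusted p = 8.97e-07). Serpina3f, its neighbour, read 1.45, 2.07 and 2.46 RPKM in unstimulated and 10.9, 11.3 and 11.3 RPKM in stimulated WT libraries, and 2.78, 2.84 and 2.56 RPKM in unstimulated and 38.1, 54.9 and 53.6 RPKM in stimulated KO libraries. The rise was larger in KO (interaction 1.69, SE 0.20, adjusted p = 0.000386). The coordinates of these paralogs overlap in the table, so the share of reads between them is uncertain.

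Prf1, the pore-forming protein of cytotoxic granules, read 5.06, 5.59 and 4.33 RPKM in unstimulated and 9.03, 5.84 and 4.73 RPKM in stimulated WT libraries, and 3.42, 4.58 and 5.38 RPKM in unstimulated and 0.38, 0.85 and 2 RPKM in stimulated KO libraries. Only the stimulated groups parted, with KO lower (interaction -1.75, SE 0.36, adjusted p = 0.0181). Its call was lost in the fit without library unstimulated WT 3 (adjusted p = 0.0514). The granule proteases Gzmb and Gzmc were positive. Gzmb went from 18.4 to 43.7 RPKM in WT and from 3.47 to 22.9 RPKM in KO, and Gzmc from 3.49 to 0.156 RPKM in WT and from 1.34 to 1.54 RPKM in KO. Serpinb6a was negative (-0.74). All 12 fits without 1 library kept 4 of the 6 calls, and Gzmb and Prf1 lost theirs in 1 to 7 of them (adjusted p up to 0.0851).

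T cell receptor signalling genes had 6 calls among 38 (15.8%, median 0.16). Dusp6, the phosphatase that switches off ERK, read 15.8, 14.2 and 14.9 RPKM in unstimulated and 6.14, 4.3 and 6.22 RPKM in stimulated WT libraries, and 9.15, 10.3 and 10.8 RPKM in unstimulated and 9.77, 12.4 and 11.8 RPKM in stimulated KO libraries. It fell in WT, and the KO values of the 2 states overlapped (interaction 1.44, SE 0.17, adjusted p = 0.00046). Cd3g, a chain of the CD3 complex, read 893, 803 and 809 RPKM in unstimulated and 136, 118 and 140.2 RPKM in stimulated WT libraries, and 724, 696 and 712 RPKM in unstimulated and 167, 158 and 166 RPKM in stimulated KO libraries. KO started lower and ended higher (interaction 0.55, SE 0.10, adjusted p = 0.00849). Cd69 (0.77) and Cd3d (0.58) were also positive, and Nr4a2 (-0.84) and Dusp5 (-0.60) negative. Tec, a tyrosine kinase of antigen receptor signalling, read 2.62, 2.17 and 3.33 RPKM in unstimulated and 5.4, 5.06 and 4.68 RPKM in stimulated WT libraries, and 2, 2.66 and 2.54 RPKM in unstimulated and 0.6, 0.65 and 0.89 RPKM in stimulated KO libraries. Tec rose in WT and fell in KO (interaction -1.71, SE 0.18, adjusted p = 0.000181). When each library was left out in turn, 2 of the 6 calls held in all 12 fits, and Cd3d, Cd69, Dusp5 and Nr4a2 lost theirs in 6 to 10 (adjusted p up to 0.1).

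Naive and quiescence genes had 6 calls among 36 (16.7%, median -0.09). Klf2, the factor that keeps T cells quiescent and recirculating, read 118, 114 and 113 RPKM in unstimulated and 7.52, 6.34 and 8.69 RPKM in stimulated WT libraries, and 136, 143 and 179 RPKM in unstimulated and 24.9, 24.9 and 28.2 RPKM in stimulated KO libraries. It fell steeply in both genotypes and less so in KO (interaction 1.28, SE 0.16, adjusted p = 0.000534). Its known target S1pr1 went the other way (-0.77). Pdlim1, a PDZ and LIM domain protein, read 73.9, 70.2 and 66.7 RPKM in unstimulated and 37, 41.9 and 41.8 RPKM in stimulated WT libraries, and 84.7, 86.7 and 86.2 RPKM in unstimulated and 30.5, 29.4 and 32.7 RPKM in stimulated KO libraries, a deeper fall in KO (interaction -0.66, SE 0.10, adjusted p = 0.00186). The remaining negative members were Il7r, Gimap4 (-0.86), Tob1 (-0.73) and S1pr1. With any 1 library left out 2 of these 6 calls held, while Gimap4, Il7r, S1pr1 and Tob1 lost theirs in 1 to 7 of 12 fits (adjusted p up to 0.072).

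Of survival genes, 3 of 24 passed (12.5%, median 0.07). Bcl2l11, which encodes the death protein BIM, read 11.4, 10.7 and 10.2 RPKM in unstimulated and 1.87, 1.88 and 2.48 RPKM in stimulated WT libraries, and 10.9, 13.1 and 13.6 RPKM in unstimulated and 4.5, 5.13 and 5.21 RPKM in stimulated KO libraries. The fall was smaller in KO (interaction 0.76, SE 0.15, adjusted p = 0.0135), as was that of Fas, and Birc5, the survivin gene, was negative (-0.46). Birc5 lost the call in 10 of the 12 fits without 1 library (adjusted p up to 0.124), and the other calls (2 of 3) held in all. Mitosis genes had a median response of 1.80 in WT and 1.48 in KO, and 3 of 33 passed (9.09%, median -0.29). Ube2c, the ubiquitin-conjugating enzyme of the anaphase-promoting complex, read 36.8, 36.2 and 44.5 RPKM in unstimulated and 222, 217 and 240.1 RPKM in stimulated WT libraries, and 68.9, 58.2 and 60.7 RPKM in unstimulated and 234, 225 and 215 RPKM in stimulated KO libraries. KO started higher and the stimulated groups overlapped (interaction -0.67, SE 0.12, adjusted p = 0.0086).

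Plk1, a mitotic kinase, read 13.8, 11.3 and 12.3 RPKM in unstimulated and 105, 108 and 118 RPKM in stimulated WT libraries, and 17.9, 17.7 and 14.3 RPKM in unstimulated and 97.7, 92.9 and 96.1 RPKM in stimulated KO libraries. Its rise was smaller in KO, from a higher start to a lower end (interaction -0.59, SE 0.13, adjusted p = 0.0214), and its call was lost in 4 of 12 fits that each left out 1 library (adjusted p 0.055 to 0.0572; unstimulated WT 2 or 3 or stimulated KO 2 or 3). DNA replication and S phase genes had 1 call among 36 (2.78%, under the background), the cell cycle factor E2f1 (-0.55), and a median of -0.17. E2f1 lost the call in 9 of the 12 fits without 1 library (adjusted p up to 0.104). At an unadjusted p under 0.05, 12 of these genes were negative and 0 positive, and among mitosis genes it was 11 and 0, in each list 33.3% against the 19.5% of all genes.

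Metabolic lists, which the title of the series brings up, had shares of called genes from 0% to 10.3%, against 4.62% of all genes tested. A share of 4.62% gives few calls in lists of this size, so 0 calls says little by itself. For oxidative phosphorylation 0 of 61 genes passed the limma test (median 0.08, with 5 at an unadjusted p under 0.05 and 0 calls by limma-voom). For the TCA cycle, pyruvate and glutamine entry it was 0 of 36 (median -0.02, 7 unadjusted, 0 by limma-voom). Cholesterol synthesis and uptake had 0 of 33 (median 0.13, 3 unadjusted, 0 by limma-voom), and ribosome biogenesis 0 of 35 (median -0.08, 5 unadjusted, 0 by limma-voom). These unadjusted shares run from 8.2% to 19.4%, against 19.5% of all genes tested. A gene that misses the threshold is not thereby shown to respond alike in both genotypes.

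Of 41 glycolysis and hypoxia genes 1 passed (2.44%, median -0.04; 2 by limma-voom). It was Egln3, an oxygen-sensing prolyl hydroxylase, at 3.02, 3.52 and 3.63 RPKM in unstimulated and 46.1, 37.3 and 36.5 RPKM in stimulated WT libraries and 0.83, 0.76 and 1.3 RPKM in unstimulated and 41.8, 64 and 57.3 RPKM in stimulated KO libraries. KO was lower without stimulation and rose more (interaction 1.59, SE 0.21, adjusted p = 0.00104). Fatty acid genes had 2 calls among 40 (5%, median -0.01). Scd2, a fatty acid desaturase, read 46.3, 47.7 and 40.8 RPKM in unstimulated and 352, 362 and 339 RPKM in stimulated WT libraries, and 81.7, 73 and 67.2 RPKM in unstimulated and 417, 322 and 318 RPKM in stimulated KO libraries, a smaller rise from a higher start (interaction -0.71, SE 0.15, adjusted p = 0.0177). The Scd2 call was lost in 2 of 12 fits that each left out 1 library (adjusted p 0.0511 to 0.0537; unstimulated WT 3 or stimulated KO 3). Dgat1, which makes triglycerides, read 10.1, 14.7 and 11.3 RPKM in unstimulated and 25.4, 22.6 and 22.8 RPKM in stimulated WT libraries, and 12.9, 9.9 and 13.2 RPKM in unstimulated and 14.6, 14.3 and 14.2 RPKM in stimulated KO libraries (interaction -0.67, SE 0.18, adjusted p = 0.0478). The Dgat1 call was lost in 10 of 12 fits that each left out 1 library (adjusted p 0.0747 to 0.117; unstimulated WT 1 or 3, unstimulated KO 1 or 3, stimulated WT 1, 2 or 3 or stimulated KO 1, 2 or 3).

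Amino acid genes had 3 calls among 29 (10.3%, median 0.09), and limma-voom called 1. At an unadjusted p under 0.05 there were 8 positive and 2 negative genes (34.5% of the list, against 19.5% of all genes tested). Cth, which makes cysteine from cystathionine, read 0.21, 0 and 0 RPKM in unstimulated and 12.1, 9.75 and 8.51 RPKM in stimulated WT libraries, and 0.05, 0.07 and 0.02 RPKM in unstimulated and 23.3, 15.7 and 18.9 RPKM in stimulated KO libraries (interaction 0.89, SE 0.21, adjusted p = 0.0282). The rise was larger in KO, and the call was lost in 6 of 12 fits that each left out 1 library (adjusted p 0.0514 to 0.0744; unstimulated WT 1 or 3, stimulated WT 2 or 3 or stimulated KO 1 or 3) and with limma-voom (0.22, adjusted p = 0.959). Atf4, the factor of the amino acid response, was positive (0.43, lost in 10 fits without 1 library, adjusted p up to 0.101), and Slc38a2, a glutamine carrier, negative (interaction -0.45, SE 0.11, adjusted p = 0.0387). Slc38a2 read 13.4, 14.6 and 13.8 RPKM in unstimulated and 54, 53.1 and 56.3 RPKM in stimulated WT libraries, and 21.2, 17.5 and 17.1 RPKM in unstimulated and 50.5, 53.1 and 52.9 RPKM in stimulated KO libraries. The Slc38a2 call was lost in 8 of 12 fits that each left out 1 library (adjusted p 0.055 to 0.0927; unstimulated WT 1, 2 or 3, stimulated WT 2 or 3 or stimulated KO 1, 2 or 3).

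Heat shock and unfolded protein genes had 3 calls among 30 (10%, median 0.14). Xbp1, a factor of the unfolded protein response, read 79.2, 76.9 and 83.1 RPKM in unstimulated and 122, 118 and 118 RPKM in stimulated WT libraries, and 75.8, 64.7 and 69.7 RPKM in unstimulated and 173, 140.5 and 169.8 RPKM in stimulated KO libraries, a larger rise in KO (interaction 0.61, SE 0.11, adjusted p = 0.0116). The endoplasmic reticulum chaperone Hspa5 was also positive (0.47), a call lost in 8 of the fits without 1 library (adjusted p up to 0.101). The mitochondrial co-chaperonin Hspe1 read 309, 309 and 302 RPKM in unstimulated and 685, 817 and 889 RPKM in stimulated WT libraries, and 323, 315 and 329 RPKM in unstimulated and 603, 608 and 624 RPKM in stimulated KO libraries. Its rise was smaller in KO (interaction -0.44, SE 0.11, adjusted p = 0.0377), a call that was lost in 11 of 12 fits that each left out 1 library (adjusted p 0.0516 to 0.0986; unstimulated WT 1, 2 or 3, unstimulated KO 1, 2 or 3, stimulated WT 2 or 3 or stimulated KO 1, 2 or 3).

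**Figure D4:**
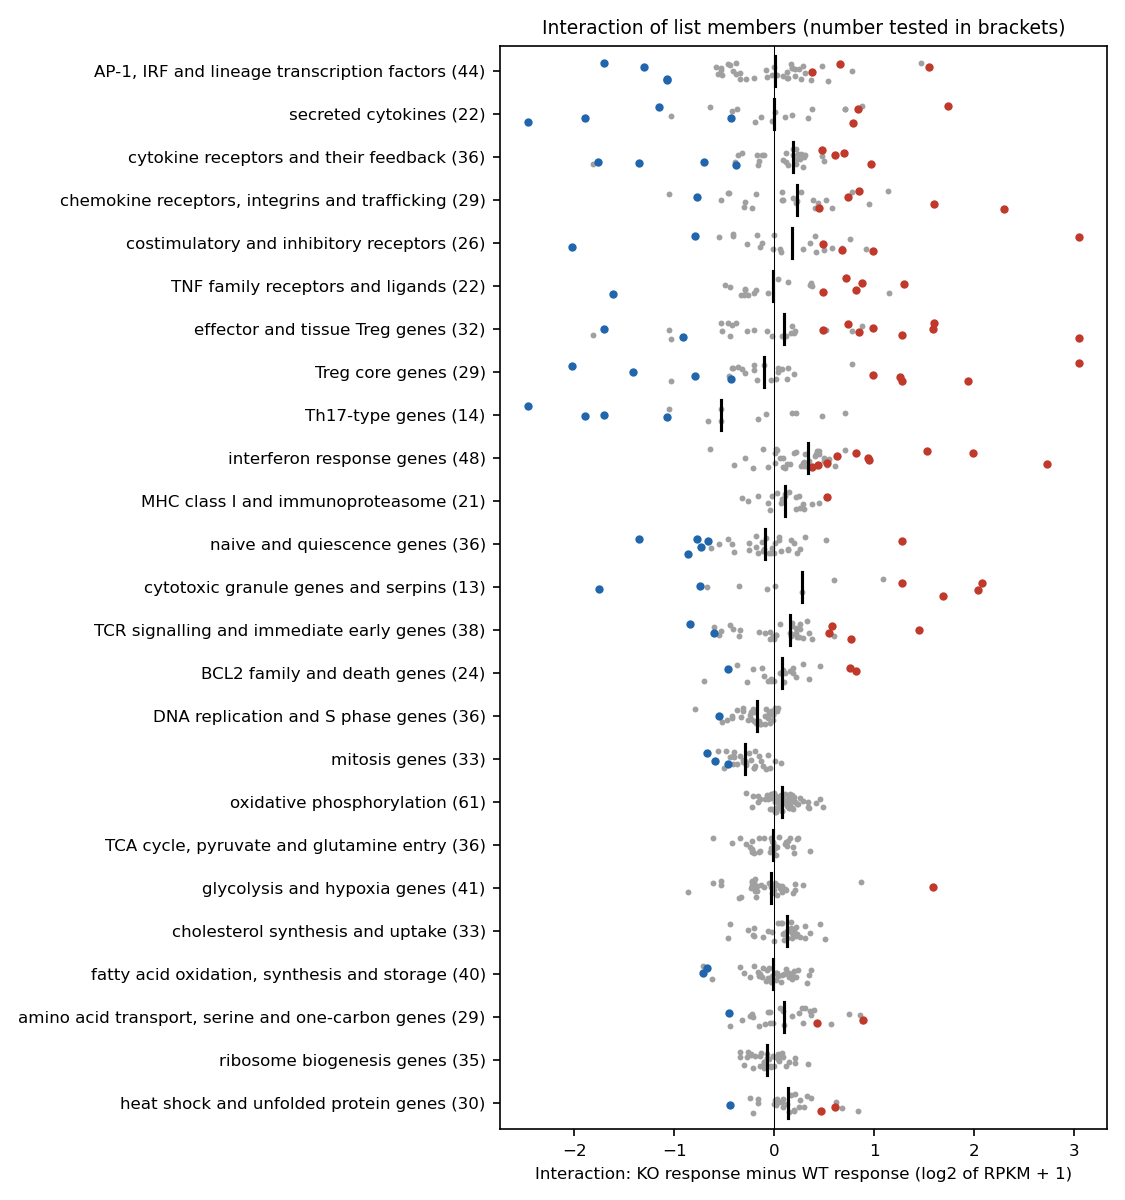
Interaction (KO response minus WT response, log2 of RPKM + 1) of each tested member of 25 gene lists, with positive calls in red, negative calls in blue and a black bar at the list median. Interferon response genes lie mostly right of 0 (median 0.34), mitosis genes mostly left of it (-0.29), and the oxidative phosphorylation list has 0 coloured points among 61.

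Other genes with the largest interactions stood outside these lists. Emp1 (chromosome 6, 135362931 to 135383173, plus strand), a small tetraspan membrane protein, read 1.77, 1.33 and 1.95 RPKM in unstimulated and 18.1, 10.1 and 14.1 RPKM in stimulated WT libraries. It read 0.57, 1.29 and 0.97 RPKM in unstimulated and 0.83, 1.62 and 1.1 RPKM in stimulated KO libraries. WT rose, and the KO values of the 2 states overlapped (interaction -2.29, SE 0.28, adjusted p = 0.000534). Ajuba, a LIM domain scaffold protein, read 0.2, 0.2 and 0.22 RPKM in unstimulated and 6.44, 4.88 and 6.73 RPKM in stimulated WT libraries, and 0.19, 0.15 and 0.33 RPKM in unstimulated and 1.25, 0.84 and 0.89 RPKM in stimulated KO libraries (interaction -1.83, SE 0.18, adjusted p = 0.000101). Procr, the endothelial protein C receptor, read 0.27, 0 and 0.17 RPKM in unstimulated and 5.16, 5.41 and 5 RPKM in stimulated WT libraries, and 0.35, 0.09 and 0.23 RPKM in unstimulated and 1.08, 0.85 and 0.97 RPKM in stimulated KO libraries (interaction -1.75, SE 0.17, adjusted p = 0.000101). All of these rose on stimulation in WT and were lower in stimulated KO than in any stimulated WT library.

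Mt3, a metallothionein, read 0.28, 0.16 and 0.08 RPKM in unstimulated and 11.7, 12 and 10.8 RPKM in stimulated WT libraries, and 0.16, 0 and 0.42 RPKM in unstimulated and 2.16, 3.74 and 1.45 RPKM in stimulated KO libraries (interaction -1.92, SE 0.28, adjusted p = 0.00186). It was near 0 without stimulation, and with limma-voom the interaction of -2.05 did not pass (adjusted p = 0.308). Agr3, of the protein disulfide isomerase family, read 2.5, 1.63 and 2.22 RPKM in unstimulated and 2.05, 3.58 and 2.01 RPKM in stimulated WT libraries, and 2.56, 7.31 and 5.4 RPKM in unstimulated and 0.82, 1.3 and 0.99 RPKM in stimulated KO libraries (interaction -1.67, SE 0.36, adjusted p = 0.0212). KO was above WT without stimulation, by a narrow margin in library 1, and below it with stimulation. Agr3 lost its call in 4 of 12 fits that each left out 1 library (adjusted p 0.0511 to 0.0585; unstimulated WT 2 or 3, stimulated WT 2 or stimulated KO 3).

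Gpr55, a receptor for lysophosphatidylinositol, read 6.5, 7.71 and 6.3 RPKM in unstimulated and 1.54, 1.47 and 1.5 RPKM in stimulated WT libraries, and 1.23, 1.55 and 1.69 RPKM in unstimulated and 1.49, 2.31 and 1.65 RPKM in stimulated KO libraries. WT fell into the range that KO held in both states (interaction 1.81, SE 0.17, adjusted p = 0.000101). Stc2, the secreted glycoprotein stanniocalcin-2, read 0.58, 0.65 and 0.35 RPKM in unstimulated and 1.15, 1.68 and 0.86 RPKM in stimulated WT libraries, and 1.9, 0.47 and 0.51 RPKM in unstimulated and 13.6, 5.51 and 6.12 RPKM in stimulated KO libraries. KO rose more, with library 1 the highest in both states (interaction 1.71, SE 0.42, adjusted p = 0.0385). The Stc2 call was lost in 10 of 12 fits that each left out 1 library (adjusted p 0.0539 to 0.0888; unstimulated WT 1, 2 or 3, unstimulated KO 2 or 3, stimulated WT 1, 2 or 3 or stimulated KO 1 or 3) and with limma-voom (2.15, adjusted p = 0.24).

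The interaction can also be read as the genotype difference before and after stimulation, which uses the same libraries. Only called genes were sorted, and a called interaction by itself sets the differences of the states apart, so the counts are a description. With a bound of 0.5 log2 units for a difference in a state, 112 of the 234 negative genes had one only with stimulation, at a median of -0.03 without and -0.92 with it. Ctla4, Tnfrsf13b, Il17a and Fosl2 were of this kind. Another 27 differed only without stimulation, 81 were under the bound in both states, and 6 had opposite differences. Those with a difference of 1 sign in both states were 7 with a larger and 1 with a smaller one after stimulation.

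Of the 247 positive genes, 85 differed only with stimulation (medians 0.00 and 0.83), as Serpina3g and Gbp5 did. A further 48 differed only without it (medians -0.88 and 0.03), as Itgb1, Cxcl10 and Gpr55 did, and 12 had a difference of 1 sign that was smaller with stimulation (medians -1.87 and -0.72), as for Tigit, Ccr4 and Icos. Those under the bound in both states numbered 92, those with opposite differences 8, and those with a difference of 1 sign that was larger with stimulation 2.

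**Figure D5:**
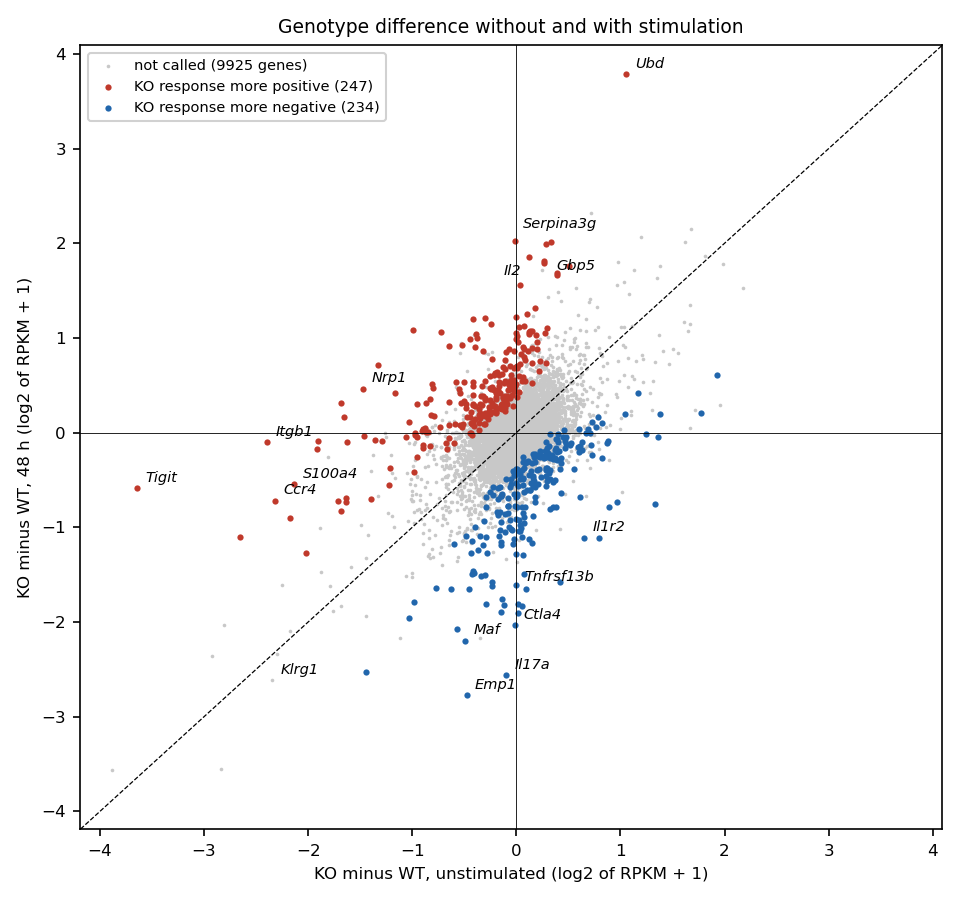
Difference between KO and WT (log2 of RPKM + 1, means of 3 libraries) without stimulation (x axis) and with it (y axis) for 10406 genes. Called genes lie away from the dashed line of equal differences: Tigit and Itgb1 far to the left, Ctla4 and Il17a far down near 0 on the x axis, and Klrg1, low in KO in both states, beside the line.

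Markers of other cell types were summed in each library. The summed RPKM of 8 NK and innate lymphoid markers was 17.1 to 22.3 in unstimulated WT and 12.1 to 20.7 in unstimulated KO libraries, and 0.471 to 1.51 in all stimulated ones, with 0 of 6 tested genes called (0 unadjusted, 0 by limma-voom). For 11 B cell markers the sums were 41.4 to 51.4 and 46 to 95.6 without stimulation and 3.46 to 8.78 with it, with 0 of 7 called (1 unadjusted, 0 by limma-voom). For 5 CD8 T cell markers they were 17.2 to 21 without and 5.7 to 7.16 with stimulation, with 0 of 3 called (0 unadjusted, 0 by limma-voom).

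The 19 myeloid and dendritic cell markers summed to 40.1 to 63.1 RPKM in the WT and 39.1 to 58.3 RPKM in the KO libraries without stimulation. With it the sums were 11 to 16.5 RPKM for WT and 14.9 to 26.5 RPKM for KO, and 17 markers were under 1 RPKM in each library of either genotype. Of these, 4 of 11 tested genes passed (36.4%, with 6 at an unadjusted p under 0.05 and 1 call by limma-voom): Cebpa (1.74), C1qb (0.97) and C1qc (0.92) were positive, higher in unstimulated WT, and Xcr1 (-1.19) negative, at 2.31 RPKM in unstimulated KO. When each library was left out in turn, 3 of the 4 calls held in all 12 fits, and C1qc lost its call in 4 (adjusted p up to 0.0654). Conventional CD4 T cell genes had 1 call among 10, Il2 (10%, against 4.62% of all genes tested). The Il2 call was lost in 10 of the 12 fits without 1 library. Of these conventional genes 3 had an unadjusted p under 0.05 (30%, against 19.5% of all genes tested), and limma-voom called 0. Their sums were 476 to 505 RPKM for WT and 520 to 571 RPKM for KO without stimulation, and after it they were 192 to 232 RPKM for WT and 185 to 380 RPKM for KO. The part of such cells in the interactions was not tested.

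Fits without the WT libraries that held Y-linked transcripts gave interactions of 2.24 for Itgb1, 2.11 for Serpina3g, -2.15 for Ctla4, -2.76 for Il17a and -1.94 for Maf, which all passed. Cxcl10 (2.32), Nrp1 (1.83), Serpina3f (1.89), Ajuba (-1.97) and Procr (-1.67) passed too. Tigit (2.81, adjusted p = 0.15), Ubd (2.70, 0.0507), Emp1 (-2.19, 0.0596), Fosl2 (-1.43, 0.0596), Tnfrsf13b (-1.51, 0.0878), Klf2 (1.05, 0.112) and Gbp5 (1.19, 0.165) kept their direction and did not pass. Ccl1 fell from 1.62 to 1.04 and did not pass (adjusted p = 0.32). With 1 WT library in each state, the spread in these fits came from the KO libraries alone and was assumed to hold for WT.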

How the data were processed

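The authors deposited RPKM values, 1 for each gene in each library, with exon length and mm10 position. Per the submitters' processing notes, FastQC, STAR, featureCounts of Subread and DESeq2 were used by the authors. No source used here gives the annotation, the strand setting or the handling of multiply mapped reads, so overlapping genes cannot be told apart. Per the labels' protocols, a stranded mRNA kit was used on 600 ng of RNA. RPKM times length gave whole reads for 100% of values (within 0.01). The table has 24421 rows, of which 27 named by spreadsheet dates were left out, and 0 columns of unmapped samples. Chi-square per degree of freedom between replicates was 6.21 to 44.2, above sampling noise for every pair.

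Values were analysed as log2(RPKM + 1), which understates changes of low genes. Genes with at least 1 RPKM in 3 libraries were fitted with limma 3.58.1 (mean trend, R 4.3.3), 1 mean per group, 8 residual degrees of freedom, two-sided, Benjamini-Hochberg over all 10406 genes, threshold 0.05. Intervals are at 95%. The fit was tested on simulated data. Lists were described by counts and medians, without a few members that are not reported here. Unstimulated columns carry a genotype and number only and were mapped by that.

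The comparison, the gene lists and the genes to name were chosen with earlier results of these data known. Named were Batf, the 12 largest positive and 12 largest negative called interactions with a group mean of at least 5 RPKM, from each list the 2 called genes of smallest adjusted p with such a mean, and a fixed set of Treg genes. Predicted genes, small RNA genes and receptor segments were skipped. Other called list members were named after their values were seen. Alternatives were pseudocounts, filters, rescaling by median ratios, limma-voom, no trend, blocks by library number, a term for Y-linked transcripts, and leaving out libraries.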

Additional observations from a re-analysis of the deposited data

Results flagged for a closer look

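The genotypes differed in their response, by the interaction test itself, at 247 genes with a more positive and 234 with a more negative response in KO. Named genes whose responses passed in opposite directions stand out among them. Ctla4 had an interaction of -2.02, Tec of -1.71, Tnfrsf13b of -1.61 and Batf of -1.08, each with a rise in WT and a fall in KO. Batf is the gene targeted in the KO, so its own values are no test of a response that depends on it. Itgb1 had an interaction of 2.30, Serpina3g of 2.04 and Gbp5 of 1.52, each with a fall in WT and a rise in KO. The groups hold 3 libraries each, so single libraries far from the others were not tested for.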

How the results depend on the processing

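Of the 56 named genes 47 passed, and none of these changed direction under any of the 29 alternatives it was tested in. Of the 9 that did not pass, Itgae (-1.06 to 0.885), Klrg1 (-2.54 to 0.757), Irf4 (-0.188 to 0.0585) and Foxp3 (-0.266 to 0.09) had either sign. Among those that passed, Itgb1, Serpina3g, Cxcl10, Nrp1, Serpina3f, Ctla4, Ajuba, Procr and Maf did so under every alternative they were tested in (Cxcl10, Ajuba and Procr were not tested with a mean of at least 5 RPKM), and over all genes and alternatives the call was kept 1131 times and lost 219 times. Positive and negative genes numbered 204 and 176 with a pseudocount of 0.1, 288 and 263 with 5, 212 and 195 without a filter, 164 and 162 with a mean of at least 5 RPKM (329 of the 481 called genes tested), 217 and 239 after rescaling, 205 and 168 with limma-voom and 248 and 195 without a trend. Counts fell most where libraries were left out. Without WT libraries 1 and 2 they were 9 and 15. Leaving out 1 library gave 107 to 279 positive and 99 to 329 negative genes. Without both libraries of WT 2 they were 63 and 71, of WT 3 91 and 76, of KO 2 118 and 98, and of KO 3 100 and 126.

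Deviations from the group means were compared between libraries that share a number. Their correlations were 0.075, 0.134 and 0.146 in WT and 0.274, 0.19 and 0.11 in KO, where all 3 were over 0.1. Between WT and KO of 1 state the correlations were -0.115 to 0.0477. The labels do not say that a number marks an animal or a batch, so the numbers were not taken as pairs. Within each genotype 6 of 6 libraries correlated best with their own number in the other state. Y-linked transcripts were present in WT libraries 1 and 2 and near 0 in WT library 3, in both states. Both are hints from the data that a number marks shared animals, which the labels do not state. The main fit has no block for it. A replicate block by number gave 194 and 179 calls, and a block by genotype and number 266 and 256. Both moved the counts by less than 1.5 times, and Dgat1 (adjusted p = 0.0805 and 0.0557) and Slc38a2 (0.0688 and 0.0647) were the named genes that no longer passed in them.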

Other observations

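Called genes outside the lists were looked at after their values were seen, and those given here kept the call in all 12 fits that left out 1 library. Vim, the intermediate filament vimentin, went from 500.4 to 553 RPKM in WT and from 511 to 269 RPKM in KO (interaction -1.06, SE 0.11, adjusted p = 0.000221). Lmna, which encodes the nuclear lamins A and C, went from 2.73 to 3.41 RPKM in WT and from 3.86 to 2.13 RPKM in KO (interaction -0.87, SE 0.18, adjusted p = 0.0166). Zyx, the focal adhesion protein zyxin, went from 37.8 to 31.8 RPKM in WT and from 38 to 19.8 RPKM in KO (interaction -0.66, SE 0.12, adjusted p = 0.0105). For Vim, Lmna and Zyx the response was more negative in KO, as it was for Crem, a cAMP-responsive transcription factor, which went from 6.65 to 28.2 RPKM in WT and from 5.91 to 11.8 RPKM in KO (interaction -1.04, SE 0.12, adjusted p = 0.000338).

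In the other direction, Pfn2, which encodes the actin-binding protein profilin-2, went from 6.59 to 3.21 RPKM in WT and from 3.29 to 4.43 RPKM in KO (interaction 1.19, SE 0.15, adjusted p = 0.000751). Rgs16, which shortens signalling by G protein-coupled receptors, went from 16.4 to 73.5 RPKM in WT and from 4.66 to 45.1 RPKM in KO (interaction 0.94, SE 0.16, adjusted p = 0.00637). Ifih1, the RNA sensor MDA5, went from 7.08 to 1.34 RPKM in WT and from 6.54 to 3.23 RPKM in KO (interaction 0.95, SE 0.13, adjusted p = 0.00104). Ifi203, an interferon-activated gene, went from 56.5 to 3.09 RPKM in WT and from 57.3 to 7.2 RPKM in KO (interaction 1.01, SE 0.18, adjusted p = 0.00876). Both of the latter had a smaller fall in KO, the direction of the called genes in the interferon list.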
